A study of Mus musculus with 31 samples.

Results

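The BCL2 family and death receptor genes described here are Bid, Bcl2l11, Bbc3, Pmaip1, Bak1, Bok, Bax, Mcl1, Bcl2l1 and Tnfrsf10b, chosen by name as genes that set the threshold of apoptosis. They were chosen with earlier results of these data known. Probe sets were assigned to them by the array annotation, and each gene was read from its probe set with the highest mean over all arrays. Of the 10 genes named, 9 were measured, with 22 probe sets among them, out of 17097 genes with a probe set of their own. Bax was not analysed here.

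The values come from total liver RNA of male mice on 31 Affymetrix arrays that carry only perfect-match probes, in 8 groups of 4 arrays, except untreated Ire1 ko with 3. The study looked for mRNAs that the stress sensor IRE1 cleaves and for targets of the transcription factor XBP1. Xbp1 ko livers (c57BL/6, 14 weeks) were set against WT littermates of the same strain and age. Xbp1 ko mice of 9 weeks were injected with an IRE1 siRNA or a luciferase siRNA and taken 8 days later, so both siRNA groups lack Xbp1. Ire1 ko mice (labelled as of mixed strain, 14 weeks) and their WT littermates (labelled c57BL/6, 14 weeks) were either injected with tunicamycin at 2 mg/kg and taken after 6 h, or left untreated in the fed state. Strain and genotype therefore cannot be told apart in the Ire1 experiment. The groups include none injected with vehicle alone, so tunicamycin and its injection cannot be told apart either. Replicates are named biological in the labels, which do not describe the knockout alleles.

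Apoptosis through mitochondria is governed by the balance of 3 kinds of BCL2 family protein. Effectors such as BAK, BAX and BOK open the outer mitochondrial membrane, anti-apoptotic members such as MCL1 and BCL-XL (from Bcl2l1) hold them in check, and BH3-only proteins such as BID, BIM (from Bcl2l11), PUMA (from Bbc3) and NOXA (from Pmaip1) tip the balance towards death. The death receptor TRAIL-R (from Tnfrsf10b) signals from the cell surface through caspase-8, and in hepatocytes that signal reaches the mitochondria through cleavage of BID. Stress of the endoplasmic reticulum (ER), here brought on by tunicamycin, which blocks N-glycosylation, is known to act on this balance through CHOP (from Ddit3) and through IRE1.

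Bid, Bcl2l11 and Bbc3 are the members on which the results turn, and the promoter windows of these genes are shown so that their letters can be read beside the values. Each window runs from 250 bases before to 50 bases after an annotated start in RefSeq (GRCm38.p6), 5′ to 3′ on the strand of the gene, and capitals mark the motif matches described next. The windows are Bid on the minus strand at chr6:120916775-120917074, the upstream start of Bcl2l11 on the plus strand at chr2:128125788-128126087, and the most upstream of the 3 Bbc3 windows found, on the plus strand at chr7:16309333-16309632.
Bid: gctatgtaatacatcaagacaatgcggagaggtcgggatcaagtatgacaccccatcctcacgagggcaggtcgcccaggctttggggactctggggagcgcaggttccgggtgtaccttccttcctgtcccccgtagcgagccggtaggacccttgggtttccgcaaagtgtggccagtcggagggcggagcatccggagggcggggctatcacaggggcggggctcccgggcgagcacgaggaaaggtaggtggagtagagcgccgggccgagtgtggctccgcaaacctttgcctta
Bcl2l11: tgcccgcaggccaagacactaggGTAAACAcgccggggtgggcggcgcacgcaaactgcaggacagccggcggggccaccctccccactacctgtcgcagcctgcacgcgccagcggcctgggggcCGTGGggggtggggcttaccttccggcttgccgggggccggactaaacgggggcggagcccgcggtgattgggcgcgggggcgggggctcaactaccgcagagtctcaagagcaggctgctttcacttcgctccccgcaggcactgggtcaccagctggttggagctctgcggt
Bbc3: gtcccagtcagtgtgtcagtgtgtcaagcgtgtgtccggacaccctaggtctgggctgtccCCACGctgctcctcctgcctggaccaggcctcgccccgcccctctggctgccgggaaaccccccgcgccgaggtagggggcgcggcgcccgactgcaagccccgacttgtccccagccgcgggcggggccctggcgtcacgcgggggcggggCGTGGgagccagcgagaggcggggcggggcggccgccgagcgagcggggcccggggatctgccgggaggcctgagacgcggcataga

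In all, 12 windows of 7 members were read, and none of Pmaip1 or Tnfrsf10b. Both strands were searched for 4 motifs: the C/EBP-ATF element TGATGNAA, which CHOP and ATF4 bind, the UPR element core TGACGTGG, the short ER stress response element core CCACG, and the FOXO element GTAAACA. The last is bound by FOXO factors, regulators of Bcl2l11. The C/EBP-ATF element was in 0 of the 12 windows, against 3.97% of 32851 promoter windows of the genome, and the UPR element core in 0 of 12, against 0.676%. The core CCACG was in 5 windows of 3 genes, against 32.8% of all windows. The Bcl2l11 window shown holds it on the opposite strand at position -124 from the start, and the Bbc3 window holds it at -189 and, on the opposite strand, at -37. The FOXO element was in 2 windows, against 3.65% of all: in the Bcl2l11 window shown, at -227, and in another Bbc3 window. The Bid window shown holds no match to these 4 motifs. A match describes the letters only, and the absence of one says nothing about a factor.

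The deposited values are probe set intensities on a linear scale, with a median of 5 on every array and 66.2% of values at 6 or less. Pmaip1 (4 to 5) and Tnfrsf10b (4 to 6) lay at 6 or less on all 31 arrays, and Bak1 lay between 4 and 7. A fall in these genes could hardly be seen from there, and a step of 1 unit by rounding is large on the log2 scale. Arrays of the same group correlated at 0.9841 to 0.9934. Groups were compared as differences of log2 intensity with limma over all genes tested, and a gene was called at a Benjamini-Hochberg adjusted p under 0.05. Xbp1 averaged 470.0 ± 80.3 in Xbp1 ko livers and 943.8 ± 140 in WT (SD, n = 4 each), with a log2 difference of -1.01 (limma adjusted p = 0.00872). The Ern1 probe set, for the gene of IRE1, gave no check of its knockout, at 150.3 ± 2.52 (SD, n = 3) in Ire1 ko and 149.2 ± 36.6 (SD, n = 4) in WT. It went against the siRNA labels: 169 to 236 on the arrays labelled IRE1 siRNA and 18 to 35 on those labelled luciferase siRNA. Directions between the siRNA groups are given as labelled.

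**Figure D1:**
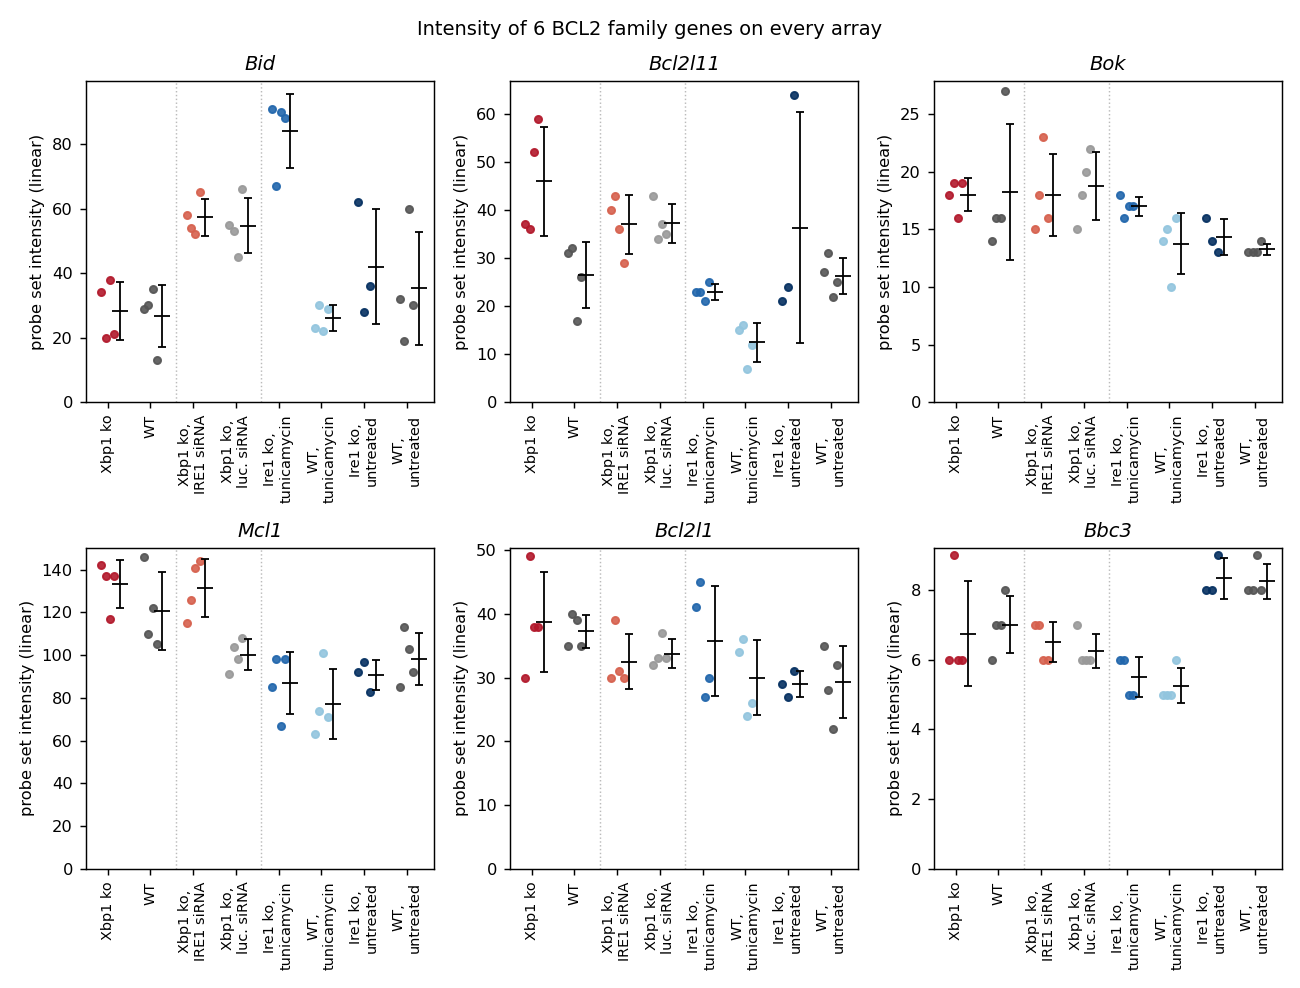
Probe set intensity (linear, y axis from 0) of Bid, Bcl2l11, Bbc3, Bok, Mcl1 and Bcl2l1 on every array, 1 point per array, with the mean and SD of each group, tested and control groups side by side along the x axis. The 4 Bid points of Ire1 ko livers given tunicamycin sit between 67 and 91, above all other arrays of that gene.

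Bid, the BH3-only protein that carries the death receptor signal to mitochondria, was the member that differed most by genotype under tunicamycin. Its intensities were 91, 67, 90 and 88 in Ire1 ko livers given tunicamycin, against 23, 30, 22 and 29 in WT livers given tunicamycin. The groups did not overlap, and the lowest Ire1 ko array was more than double the highest WT array. The means were 84.0 ± 11.4 and 26.0 ± 4.08 (SD, n = 4 each), a 3.24-fold difference (log2 difference 1.69, SE 0.29, limma adjusted p = 0.000431). Leaving out each array of the experiment in turn gave 1.62 to 1.80. Summed hepatocyte markers were also higher without overlap, at 46521 to 49765 in Ire1 ko and 43206 to 43868 in WT. So were Kupffer cell and macrophage markers, at 954 to 1323 and 647 to 870, while endothelial and stellate cell markers overlapped. Of the hepatocyte markers 4 of 12 were called higher, and 0 of 12 macrophage markers, against 9.68% of all genes tested. The part of these cells in the Bid difference was not tested.

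Without tunicamycin, Bid was 62, 28 and 36 in Ire1 ko livers, against 32, 19, 60 and 30 in WT livers. These groups overlapped, each holding 1 array near 60, and the log2 difference of 0.30 (SE 0.31) was not called (limma adjusted p = 0.845). Tunicamycin was followed by higher Bid in Ire1 ko livers, by 1.07 on the log2 scale (SE 0.31, limma adjusted p = 0.0156), with all 4 treated arrays above the 3 untreated ones. In WT livers the difference was -0.33 (95% interval -0.94 to 0.28, limma adjusted p = 0.432), and the treated arrays lay inside the untreated range.

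The rise in Ire1 ko livers rests on few untreated arrays. Without untreated Ire1 ko replicate 2, it was 0.82 (limma adjusted p = 0.101), and without replicate 3 it was 1.0 (limma adjusted p = 0.0596). The test of whether tunicamycin acted differently on Bid in the 2 genotypes gave 1.40 (SE 0.42, 95% interval 0.50 to 2.30, unadjusted p = 0.00449), just outside the threshold after adjustment over all genes (limma adjusted p = 0.0563). It was called under quantile normalization (limma adjusted p = 0.0321), and leaving out single arrays gave 1.10 to 1.72, with adjusted p between 0.017 and 0.16.

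A dimmer Bid probe set moved in the same way. It read 11, 9, 9 and 10 in Ire1 ko livers given tunicamycin, against 5, 6, 6 and 5 in WT livers given tunicamycin, and these groups did not overlap either. Its genotype difference under tunicamycin was 0.83 (SE 0.14, limma adjusted p = 0.00154) and its interaction 0.88 (SE 0.21, limma adjusted p = 0.0304). Its treated WT values lay at 6 or less, near the floor, where rounding gives large steps in log2, so these sizes are uncertain. The remaining Bid probe set was at the floor.

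**Figure D2:**
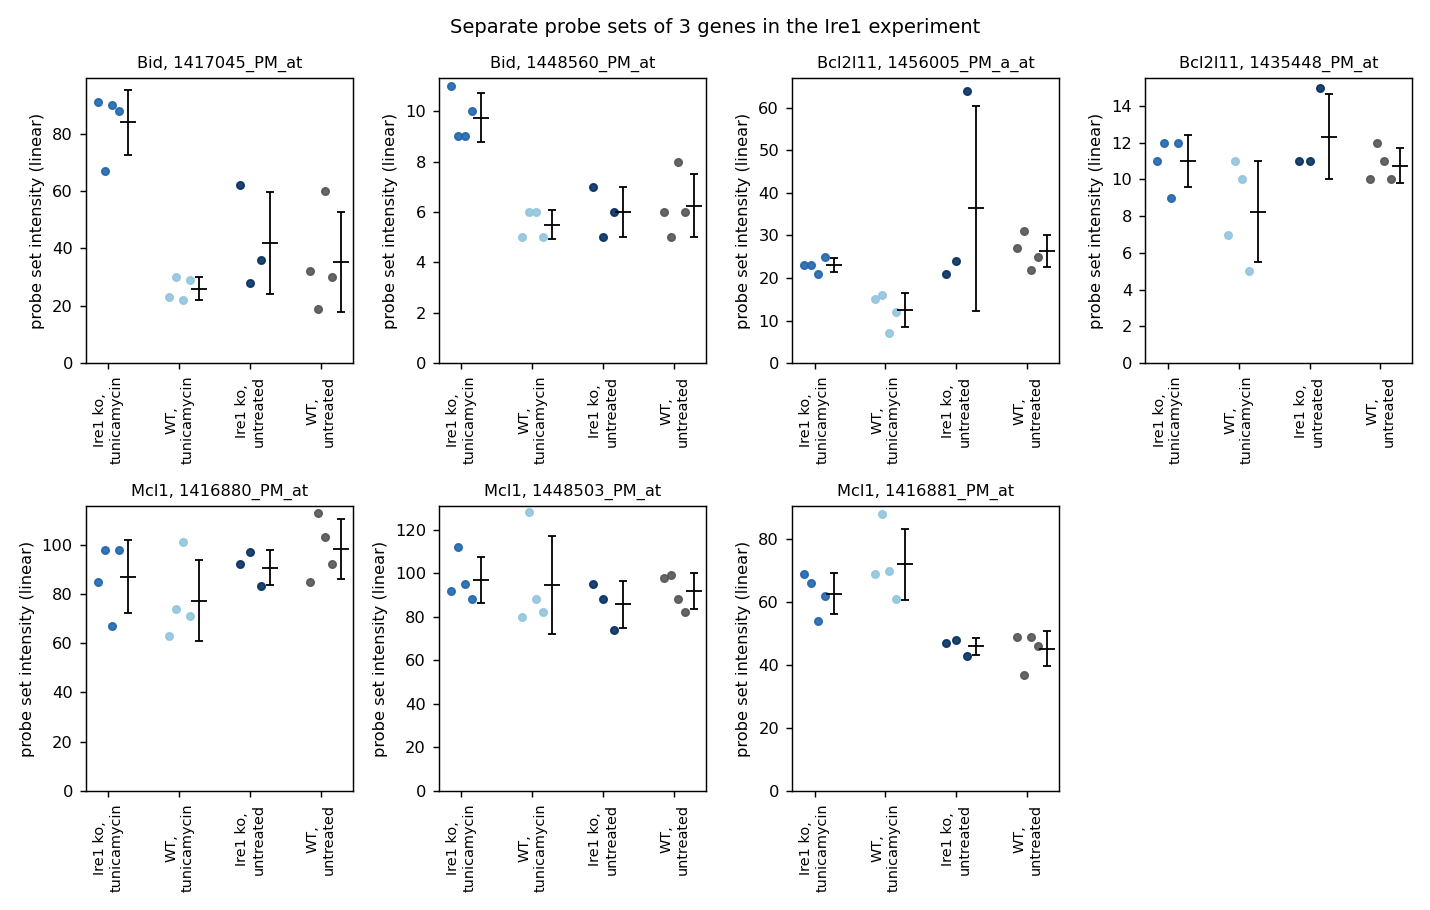
Intensity (linear, y axes from 0) of separate probe sets of Bid, Bcl2l11 and Mcl1 in the Ire1 experiment, 1 point per array with the mean and SD of each group. Both Bid probe sets are highest in Ire1 ko livers given tunicamycin, whereas the 3 Mcl1 probe sets do not move alike.

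Bid differed little in the other experiments. In Xbp1 ko livers it was 34, 20, 38 and 21, against 29, 30, 35 and 13 in WT, with overlapping groups and a log2 difference of 0.11 (95% interval -0.70 to 0.93). The arrays labelled IRE1 siRNA gave 52 to 65 and those labelled luciferase siRNA 45 to 66, a difference of 0.07 (95% interval -0.22 to 0.37).

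Bcl2l11 encodes BIM, the BH3-only protein that CHOP is known to induce under ER stress in several cell types. It was lower in tunicamycin-treated WT livers: 15, 16, 7 and 12, against 27, 31, 22 and 25 in untreated WT livers, with no overlap. The log2 difference was -1.13 (SE 0.30, limma adjusted p = 0.00654). In Ire1 ko livers the treated arrays read 23, 23, 21 and 25 and the untreated ones 21, 24 and 64. The 1 high untreated array set that difference of -0.47 (limma adjusted p = 0.342). Without it the difference was 0.03.

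Under tunicamycin, all 4 Ire1 ko arrays of Bcl2l11 were above all 4 WT arrays, 21 to 25 against 7 to 16, with means of 23.0 ± 1.63 and 12.5 ± 4.04 (SD, n = 4 each). The log2 difference was 0.95 (SE 0.30, limma adjusted p = 0.0372). Dropping single arrays lost this call in 8 of 15 fits, with adjusted p up to 0.135. Those were the fits without any 1 of the 4 treated Ire1 ko arrays, treated WT replicate 3 or 4, or untreated WT replicate 1 or 4. It was also lost under quantile normalization (adjusted p 0.0512), with the replicate block (0.0703), with no filter on dim genes (0.0723), with the mean of all probe sets (0.33, adjusted p 0.0849) and on log2 of the intensity plus 16 (0.46, adjusted p 0.0954). The interaction was 0.66 (95% interval -0.28 to 1.59, limma adjusted p = 0.486).

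The other Bcl2l11 probe sets were dimmer. The brightest of them read 7, 11, 10 and 5 in WT livers given tunicamycin and 10, 12, 11 and 10 in untreated WT livers, overlapping groups with a log2 difference of -0.44 (limma adjusted p = 0.156). Its difference between Ire1 ko and WT under tunicamycin was 0.47 (limma adjusted p = 0.21). Both carried the sign of the brighter probe set. A dimmer one still gave -0.12 and 0.07, and neither was called in these comparisons. The remaining 2 averaged 5.26 and 4.19 over all arrays, at the floor.

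In the Xbp1 experiment Bcl2l11 was 37, 36, 52 and 59 in Xbp1 ko livers, against 31, 32, 17 and 26 in WT livers. Every Xbp1 ko array was above every WT array, yet the log2 difference of 0.81 (SE 0.25, 95% interval 0.23 to 1.38) was not called after adjustment (limma adjusted p = 0.191). It was called when only genes reaching an intensity of 16 were tested (limma adjusted p = 0.0459). The summed Kupffer cell and macrophage markers were 1260 to 2372 in Xbp1 ko and 1476 to 1643 in WT, and the neutrophil markers 30 to 94 in Xbp1 ko and 27 to 31 in WT; their part in this difference was not tested. Hepatocyte markers did not overlap, at 44784 to 46541 in Xbp1 ko and 48306 to 52385 in WT. Of these, 3 of 12 were called lower, against 2.07% of all genes tested, and their part was not tested either. The siRNA groups overlapped, at 29 to 43 on the arrays labelled IRE1 siRNA and 34 to 43 on those labelled luciferase siRNA.

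BIM is also abundant in blood-derived cells, and macrophage markers moved in some of the same groups. In bulk liver, fewer cells of a type and less RNA per cell cannot be told apart. The summed intensity of 12 Kupffer cell and macrophage markers was 647 to 870 in WT livers given tunicamycin, against 890 to 1800 in untreated WT livers, and 4 of the 12 were called lower. The marker Timd4 was at 6 or less on all 4 treated WT arrays. In Ire1 ko livers the sum was 954 to 1323 with tunicamycin and 2716, 889 and 946 without, and 0 of 12 were called (0 at an unadjusted p under 0.05). Of all genes tested, 27.7% were called in that comparison. The Ire1 ko array with the highest Bcl2l11 (64) had a sum of 946, while the array with the highest sum had a Bcl2l11 of 21. The part of these cells in the Bcl2l11 differences was not tested. Liver endothelial markers gave 631 to 778 with tunicamycin and 856 to 1132 without in WT livers (4 of 10 called lower and 1 higher). Hepatocyte markers did not overlap in WT livers either, at 43206 to 43868 with tunicamycin and 46334 to 49314 without. Of these, 5 of 12 were called lower and 1 higher, where 17.6% of all genes tested were called lower and 18.5% higher. Their part in the Bcl2l11 difference was not tested. Stellate cell markers summed to 505 to 671 with tunicamycin and 516 to 699 without in WT, and 2 of 9 tested were called lower. Of the 10 stellate markers measured, 4 lay at 6 or less on every array of both WT groups. Cholangiocyte and lymphocyte markers stayed near the floor in all groups.

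**Figure D3:**
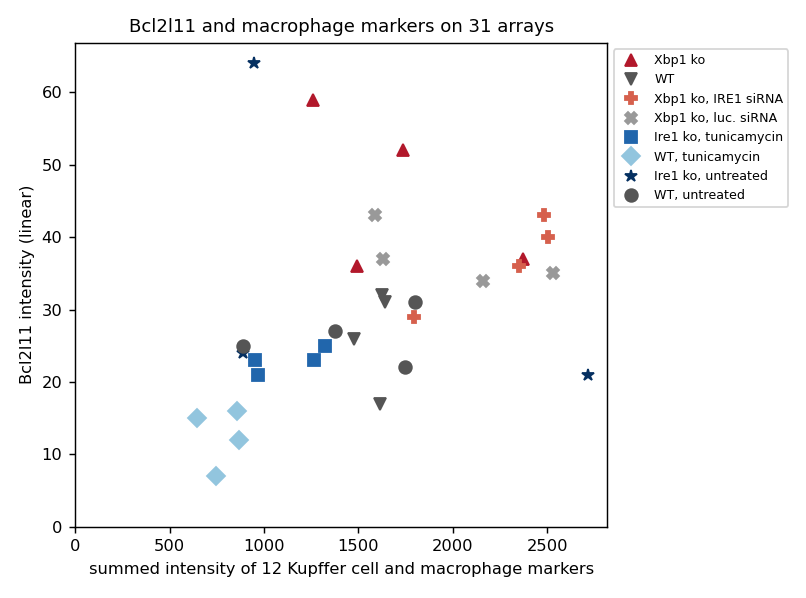
Bcl2l11 intensity (linear, y axis) against the summed intensity of 12 Kupffer cell and macrophage markers (x axis) on all 31 arrays, with a symbol and colour per group. Arrays of WT livers given tunicamycin lie at the lower left, while the array with the highest Bcl2l11 (64, untreated Ire1 ko) lies at a marker sum of 946.

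Bbc3 encodes PUMA, a BH3-only protein induced by p53 and by CHOP in cultured cells. It was dim, and it was lower after tunicamycin in both genotypes. Intensities were 6, 6, 5 and 5 in treated Ire1 ko livers, against 8, 8 and 9 in untreated ones, and 5, 5, 5 and 6 in treated WT livers, against 8, 8, 9 and 8 in untreated ones. Treated and untreated arrays did not overlap in either genotype, although the values lie within a few units of the floor, where rounding to whole numbers gives large steps in log2. The log2 differences were -0.60 (SE 0.11, limma adjusted p = 0.000484) in Ire1 ko and -0.65 (SE 0.10, limma adjusted p = 6.15e-05) in WT, and the interaction was 0.05 (95% interval -0.26 to 0.37). Bbc3 has a single probe set. Its difference was -0.07 between Xbp1 ko and WT and 0.06 between the siRNA groups.

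Bok, an effector-like member of the ER membrane, was 18, 16, 17 and 17 in Ire1 ko livers given tunicamycin, against 14, 15, 10 and 16 in WT livers given tunicamycin. The groups touched at 16, and the log2 difference of 0.33 (SE 0.14) was not called (limma adjusted p = 0.121). Pmaip1 and the effector Bak1 had differences of at most 0.23 in size in the 7 comparisons. Setting all arrays to a common median made the tunicamycin difference of Bak1 in Ire1 ko livers -0.37 and called it (limma adjusted p = 0.0416), against -0.19 otherwise, from 5 to 6 on treated and 5 to 7 on untreated arrays. Pmaip1, which encodes NOXA, passed the filter on low values in all comparisons but that of Xbp1 ko with WT.

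Mcl1, which encodes a short-lived guardian of hepatocyte survival, was measured well above the floor. It read 115, 126, 141 and 144 on the arrays labelled IRE1 siRNA, against 91, 104, 98 and 108 on those labelled luciferase siRNA. The groups did not overlap, but the log2 difference of 0.39 (SE 0.09, 95% interval 0.18 to 0.60) was not called (limma adjusted p = 0.096). Restricting the test to genes reaching an intensity of 16 gave an adjusted p of 0.0368 in limma. The other Mcl1 probe sets gave 0.34 (limma adjusted p = 0.238) and, with overlapping groups of 40 to 58 and 43 to 53, 0.04 (limma adjusted p = 0.98).

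The Mcl1 probe sets went different ways after tunicamycin. The brightest read 63, 74, 101 and 71 in treated WT livers, against 85, 113, 103 and 92 in untreated WT livers, with a log2 difference of -0.36 (limma adjusted p = 0.0839). Quantile normalization made it -0.48 and called it (limma adjusted p = 0.0274). The dimmest read 69, 88, 70 and 61 in treated WT livers, against 49, 37, 49 and 46 in untreated WT livers, with no overlap and a difference of 0.67 (limma adjusted p = 0.000814). The remaining one gave 0.02. In Ire1 ko livers the dimmest probe set was also higher with tunicamycin, by 0.44 (limma adjusted p = 0.029), while the brightest gave -0.07. The direction of Mcl1 therefore depends on the probe set read.

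Bcl2l1, the gene of BCL-XL, gave 0 calls. It read 41, 45, 27 and 30 in Ire1 ko livers given tunicamycin, against 34, 36, 24 and 26 in WT livers given tunicamycin, groups that overlapped, with a log2 difference of 0.24 (95% interval -0.16 to 0.64). The difference was 0.04 (95% interval -0.30 to 0.38) between Xbp1 ko and WT livers. A dimmer Bcl2l1 probe set read 10, 9, 9 and 8 in Xbp1 ko livers, against 19, 12, 14 and 10 in WT livers, groups that touched at 10, with a difference of -0.58 (SE 0.19) that was not called (limma adjusted p = 0.257). Another gave 0.18. The receptor gene Tnfrsf10b, at the floor, differed by at most 0.24.

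Counted over the members, calls were few. Between Xbp1 ko and WT, 0 of 8 members tested were called by limma (1 at an unadjusted p under 0.05), against 2.71% of all genes tested (0.642% higher, 2.07% lower). Between the siRNA groups 0 of 9 were called (1 unadjusted), against 1.79% (0.649% higher, 1.14% lower). Between untreated Ire1 ko and WT 0 of 9 were called (0 unadjusted), against 0.943% (0.0791% higher, 0.863% lower). After tunicamycin 2 of 9 were called in WT livers, both lower (Bcl2l11 and Bbc3), where 36.1% of all genes were called, 18.5% higher and 17.6% lower. In Ire1 ko livers 2 of 9 were called after tunicamycin (Bid higher, Bbc3 lower), against 27.7% (17.4% higher, 10.3% lower). Between Ire1 ko and WT under tunicamycin 2 of 9 were higher (Bid and Bcl2l11), where 18.2% of all genes were called, 9.68% higher and 8.5% lower. The interaction gave 0 of 9 (1 unadjusted), against 7.53% (3.58% higher, 3.95% lower). After tunicamycin the members were thus called no more often than genes in general, and the median log2 difference of the 9 members was -0.16 in WT livers against -0.02 over all genes tested. Between the genotypes under tunicamycin the median was 0.24 over the members and 0.01 over all genes tested.

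**Figure D4:**
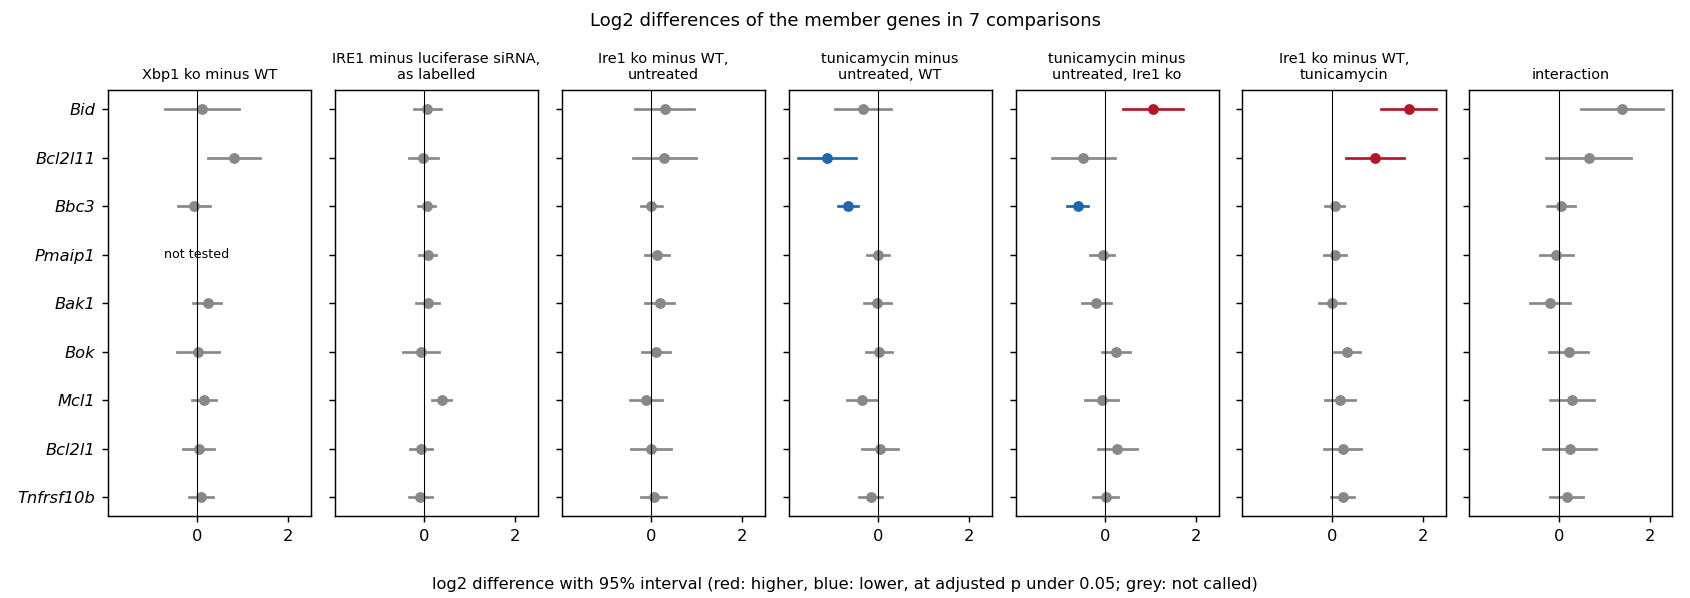
Log2 differences of the 9 measured members (down the page) with 95% intervals in 7 comparisons (panels), tested minus control group. Red marks a call higher, blue a call lower and grey no call. Red appears for Bid and Bcl2l11 between Ire1 ko and WT under tunicamycin and for Bid after tunicamycin in Ire1 ko.

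The wider death pathways were described with lists of genes grouped by function, chosen with earlier results of these data known. ER stress genes responded in both genotypes: after tunicamycin 9 of 13 were higher in Ire1 ko livers and 9 of 13 in WT livers. Of all genes tested, 17.4% and 18.5% were called higher. Ddit3, the gene of CHOP, was higher by 6.63 (limma adjusted p = 5.06e-08) in Ire1 ko and 8.00 (limma adjusted p = 7.84e-10) in WT on the log2 scale, Atf3 by 7.11 and 7.75, and Trib3 by 6.43 and 6.38. Ero1a was higher by 2.40 and 3.51, and Chac1 by 2.30 and 4.6. In WT livers 1 of the 13 was called lower, Casp12, which read 4 to 5 in all groups of the Ire1 experiment. Between Ire1 ko and WT under tunicamycin 2 of 13 were higher and 5 lower, among them Chac1 at -2.97, Ero1a at -1.37, Ppp1r15a at -0.91 and Xbp1 at 0.82. In that comparison 9.68% of all genes tested were higher and 8.5% lower. The untreated Ire1 ko arrays of Ddit3 read 14, 117 and 16, so replicate 2, on which the Bid call leans, was also the high array for Ddit3.

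The list of other BH3-only and BH3-like genes also held Bcl2l13, a family member not of the BH3-only kind. Every call in the list after tunicamycin was lower. In Ire1 ko livers 3 of 10 were called: Bcl2l13, Bik and Bmf. In WT livers 4 of 10 were called: Bcl2l13, Bik, Bmf and Bcl2l14. Of all genes tested, 10.3% were called lower in Ire1 ko and 17.6% in WT. Bcl2l13, which was well above the floor, averaged 23.75 ± 1.71 in treated (SD, n = 4) and 38.33 ± 6.81 in untreated Ire1 ko livers (SD, n = 3), a log2 difference of -0.68, and 23 ± 1.41 in treated and 34.75 ± 9 in untreated WT livers (SD, n = 4 each), a difference of -0.57. The other calls were of dim genes and are given as levels only: Bik was 5 to 8 in treated livers of either genotype, against 8 to 12 in untreated Ire1 ko and 8 to 15 in untreated WT, and Bmf was 4 to 5 in treated livers of either genotype, against 5 to 8 and 6 to 8. Bcl2l14 read 4 to 5 in all groups of the Ire1 experiment, so its calls, in WT and for the interaction, are a rounding step. The list's median was -0.19 in Ire1 ko and -0.20 in WT, beside 0.00 and -0.02 over all genes tested. The other anti-apoptotic genes gave 0 calls of 5 in either genotype (0 at an unadjusted p under 0.05). Over all genes tested, 27.7% were called in Ire1 ko and 36.1% in WT.

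Death receptors and ligands were 3 higher and 3 lower of 14 in Ire1 ko livers and 1 higher and 2 lower of 14 in WT livers after tunicamycin. All genes tested were 17.4% higher and 10.3% lower in Ire1 ko, and 18.5% higher and 17.6% lower in WT. Tnfrsf12a, the receptor of the ligand TWEAK, was higher by 3.86 in Ire1 ko and 4.11 in WT. Fas, the main death receptor of hepatocytes, was lower in both, at -0.73 in Ire1 ko and -0.91 in WT, as was Ltbr, the lymphotoxin receptor, at -0.80 and -1.0. Tnfrsf1b, a TNF receptor, was higher by 0.85 in Ire1 ko livers, and it was the only call of the list between Ire1 ko and WT under tunicamycin, at 0.70 (limma adjusted p = 0.016). In that comparison 18.2% of all genes tested were called, beside this 1 of 14.

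In the receptor signalling complex, 3 of 12 genes had a called interaction between genotype and tunicamycin, against 7.53% of all genes tested. After tunicamycin 1 of 12 genes was higher (Daxx, 1.06) and 1 lower (Birc3, -0.62) in Ire1 ko livers. In WT livers 5 were higher, among them Cflar at 1.84, Birc2 at 1.52 and Cyld at 0.89, and 4 lower, among them Birc3 at -1.62. The shares called higher and lower over all genes tested were 17.4% and 10.3% in Ire1 ko, and 18.5% and 17.6% in WT. Cflar, which encodes the caspase-8 inhibitor FLIP, averaged 56.75 ± 10.2 in Ire1 ko livers given tunicamycin (SD, n = 4), against 238.8 ± 22.5 in WT livers given tunicamycin (SD, n = 4). Without tunicamycin it was 54.67 ± 5.51 in Ire1 ko (SD, n = 3) and 67.0 ± 10.6 in WT (SD, n = 4), so it stood out in treated WT livers. Its difference between Ire1 ko and WT under tunicamycin was -2.09 (limma adjusted p = 2.44e-08) and its interaction -1.80 (SE 0.21, limma adjusted p = 4.84e-05). Birc2, an inhibitor of apoptosis at the TNF receptor, had 18 ± 2.45 in Ire1 ko and 40.0 ± 3.83 in WT with tunicamycin (SD, n = 4 each), a difference of -1.16, and an interaction of -1.15 (limma adjusted p = 0.00322). Birc3 had a difference of 0.47 and an interaction of 1.0 (limma adjusted p = 0.00609).

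Of the apoptosome and executioner genes, 3 of 17 were higher and 2 lower after tunicamycin in Ire1 ko livers, and 3 higher and 4 lower in WT livers. In Ire1 ko these included Vdac3 at 0.71, Diablo at 0.66, Casp9 at -0.64 and Aifm1 at -0.56, and in WT, beside Casp9, Casp6 at -1.24, Cycs at 0.78 and Diablo at 0.50. Among all genes tested, 17.4% were higher and 10.3% lower in Ire1 ko, and 18.5% higher and 17.6% lower in WT. Casp6, an executioner caspase, averaged 99.75 ± 13.2 in Ire1 ko and 34.0 ± 5.35 in WT with tunicamycin (SD, n = 4 each), against 112.7 ± 4.51 (SD, n = 3) in Ire1 ko and 81.75 ± 23.6 (SD, n = 4) in WT without it. Its interaction was 1.05 (SE 0.25, limma adjusted p = 0.0152). Casp9, the initiator caspase of the apoptosome, was 8 to 10 in Ire1 ko and 4 to 6 in WT with tunicamycin, against 12 to 16 in Ire1 ko and 14 to 21 in WT without it. Its treated WT arrays lay at the floor, so the size of its called differences against them and of its called interaction is not given. Cycs, the gene of cytochrome c, had an interaction of -0.58 (limma adjusted p = 0.00132). Between the genotypes under tunicamycin, 6 of 17 genes of the list were higher and 2 lower in Ire1 ko, among them Casp6 at 1.56, Casp9, Endog at -0.54 and the caspase inhibitor Xiap at 0.50. In that comparison 9.68% of all genes tested were higher and 8.5% lower. Hepatocyte markers summed to 46521 to 49765 in Ire1 ko livers and 43206 to 43868 in WT livers with tunicamycin, with 4 of 12 called higher, and their part in these differences was not tested.

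**Figure D5:**
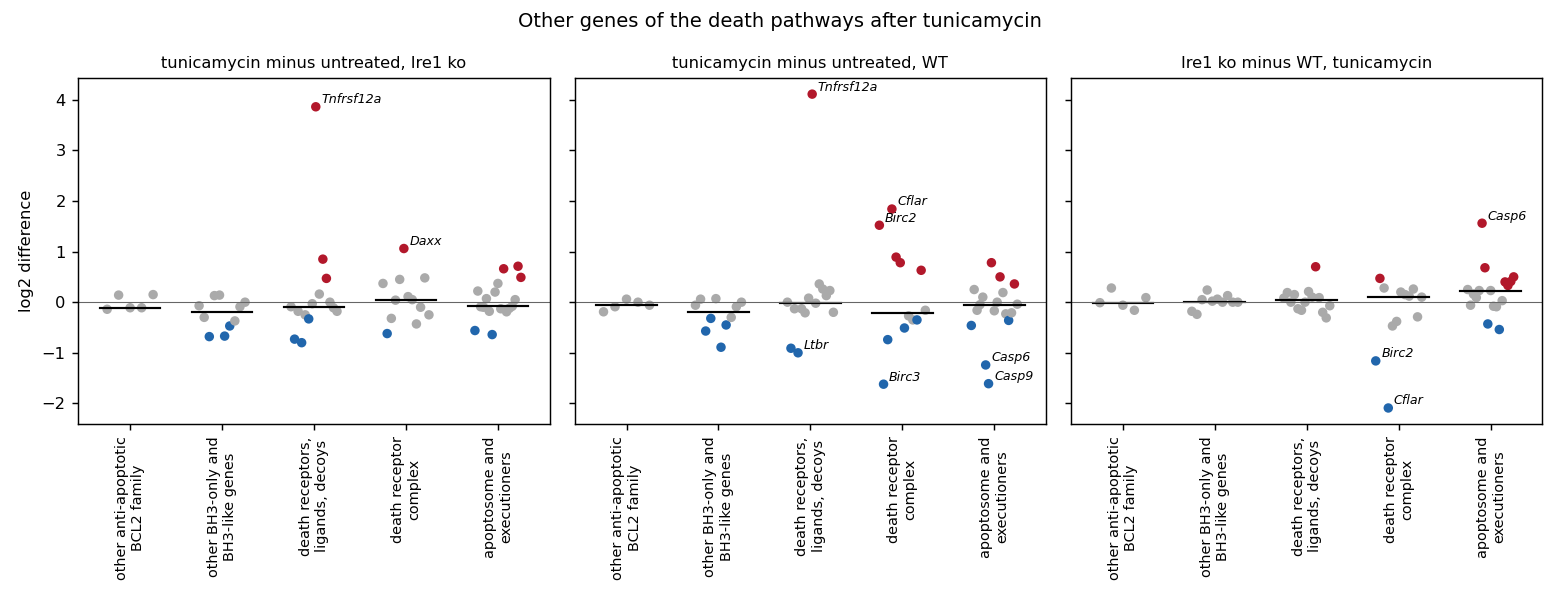
Log2 differences (y axis) of other death pathway genes in 5 lists (x axis), for tunicamycin against untreated in Ire1 ko, the same in WT, and Ire1 ko against WT under tunicamycin. Points are genes, red called higher, blue called lower, grey not called, and bars are list medians. Cflar is at -2.09 in the genotype panel, and Casp6 at 1.56.

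Without tunicamycin the same lists held few calls, as did all genes tested. Between Xbp1 ko and WT, Bnip3 was the only call among these 5 death pathway lists, higher by 0.51 (limma adjusted p = 0.0387). That is 1 of 57 genes, where 2.71% of all genes tested were called. By limma, the siRNA groups gave 0 calls of 55 in those lists and the untreated Ire1 ko comparison 0 of 58. The shares of all genes tested were 1.79% and 0.943%. At an unadjusted p under 0.05, 7 of 57 genes of these lists were higher and 0 lower in Xbp1 ko, where 7.5% and 6.47% of all genes tested were. Between the siRNA groups 9 of 55 were higher and 1 lower, against 9.87% and 4.93% of all genes, and in untreated Ire1 ko 3 of 58 were higher and 5 lower, against 3.14% and 6.35%.

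Over the 31 arrays, the genes whose log2 intensity was most like that of Bcl2l11 among 6610 genes were Stmn1 (Pearson r 0.85), Atp1b1 (0.81) and Prkd3 (0.80). For Bid they were Mrpl19 (0.85), Fam136a (0.81) and Cenpv (0.80), and for Mcl1 Fbxl20 (0.84), Psma4 (0.84) and Chp1 (0.83). The arrays share experiments and normalization, so these values are descriptions only.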

How the data were processed

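The authors deposited 1 table of linear intensity per probe set, in whole numbers, made with RMA and affy per the submitters' processing notes. Versions are not given in the sources used here. All tests used log2 intensity. The annotation gave 1 symbol to 28898 of 45037 probe sets, and each of 17097 genes was read from its brightest one.

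Tests used lmFit and eBayes with trend of limma 3.58.1 under R 4.3.3, two-sided, in fits of 8 Xbp1, 8 siRNA and 15 Ire1 arrays. Genes above the 30th percentile of their array in at least 3 arrays of a fit were tested, and p was adjusted by Benjamini-Hochberg over all of them. The fits were tested on simulated data. Precision is limited by the number of arrays.

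Members and lists were chosen with earlier results of these data known. Beside the members, the text names up to 4 called genes of each list with the largest change, the 3 genes most like each of the 3 most variable members, and Xbp1 and Ern1. Same-numbered arrays did not deviate together in every pair (correlations -0.18 to 0.28), so numbers were not used as pairs. Alternatives covered scaling, filters, probe sets, fits, a replicate block and each array left out.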

Additional observations from a re-analysis of the deposited data

Results flagged for a closer look

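In 34 groups of 4 arrays whose values spread over more than 2 units, 4 held an array far from the others by Dixon's test. Chance gives about 1 in 20. Bid was 67 on replicate 2 of the Ire1 ko livers given tunicamycin, below the other arrays (88 to 91) and still above every WT array. Bcl2l1 was 39 on replicate 2 of the arrays labelled IRE1 siRNA. Bbc3 was 9 on replicate 2 of the Xbp1 ko livers, where the others read 6. Bok was 27 on replicate 4 of the WT littermates of Xbp1 ko.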

How the results depend on the processing

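Bid between Ire1 ko and WT under tunicamycin kept its call when each array was left out (adjusted p 9.05e-05 to 0.00259 in limma), and Bbc3 after tunicamycin in WT kept a difference of -0.72 to -0.61. Values near the intensity floor limit all dim genes, and the cause of the changes below was not tested. The setting on a common median over brighter probe sets, called the common median below, shifted the median of all genes by -0.12 (tunicamycin in WT) and -0.18 (in Ire1 ko). The probe set alternatives were chosen after seeing the data.

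Genes called between Xbp1 ko and WT were 380, against 605 in 1 fit of all arrays, 197 with the replicate block, 239 with the next brightest probe set, and 237 to 373 with an array left out. Between the siRNA groups they were 251, against 397 at an intensity filter of 16 and 43 with the replicate block. Between untreated Ire1 ko and WT they were 143, against 93 with the next brightest probe set and 95 to 147 with an array left out. The common median moved the calls higher and lower to 2379 and 3864 (tunicamycin in WT, 2807 and 2677 as reported), and to 1878 and 3365 (tunicamycin in Ire1 ko, 2634 and 1570 as reported, 2055 and 2226 under quantile normalization), to 29 and 102 (untreated Ire1 ko, 12 and 131 as reported) and to 51 and 282 (siRNA groups, 91 and 160 as reported, 69 and 202 under quantile normalization).

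Members called became 1 between Xbp1 ko and WT (Bcl2l11) under the common median and under the filter at 16, which tested 5 members. Between the siRNA groups they became 1 (Mcl1, 5 members tested) under that filter. After tunicamycin they became 1 in WT with the next brightest probe set (Bcl2l11 lost) and 2 to 3 with an array left out. Mcl1 was gained in WT under quantile normalization, the common median, 1 fit and the filter (adjusted p 0.0274, 0.0185, 0.0349 and 0.0463 in limma) and without WT tunicamycin replicate 3 (0.0142). In Ire1 ko they became 1 under the filter, where 5 were tested and Bbc3 (9 or less on every array) was not. They were 1 to 2 with an array left out, and 3 under the common median (Bak1 gained). Between the genotypes under tunicamycin they became 1, with Bcl2l11 lost, under quantile normalization, no filter, the mean of probe sets, log2 of the intensity plus 16, the replicate block and the next brightest probe set, 0 with the one after it, and 1 to 2 with an array left out. The interaction gave 1 (Bid) under quantile normalization, the common median, the filter, log2 plus 16, 1 fit and the next brightest probe set, and 0 to 1 with an array left out. The dimmest Mcl1 probe set turned the tunicamycin difference to 0.67 in WT and 0.44 in Ire1 ko.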

Other observations

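Some transcription factors that act on the family in other settings were also called after tunicamycin. In WT livers 3 of 10 tested were higher (Jun 2.20, Myc 1.5 and Rela 0.90 on the log2 scale) and 3 lower (Stat3 -0.96, Foxo4 -0.77 and Stat5b -0.49). There, 18.5% of all genes tested were higher and 17.6% lower. In Ire1 ko livers 3 were higher and 2 lower, against 17.4% and 10.3% of all genes tested. Between Ire1 ko and WT under tunicamycin, Cebpb was higher by 0.80 and Stat3 lower, at -0.73. The interaction of Cebpb was 0.81. By limma, 0 of these genes were called in Xbp1 ko against WT, in the siRNA groups or in untreated Ire1 ko against WT. Of all genes tested, 2.71%, 1.79% and 0.943% were called in these comparisons. The counts at an unadjusted p under 0.05 were 0, 2 and 0. The 2 were higher between the siRNA groups, as were 9.87% of all genes tested.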
